A study of Mus musculus with 3 samples.

Results

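The genes of sterol synthesis, uptake and efflux were examined in BMDMs, macrophages grown from mouse bone marrow. They are a named set of 36 genes, and all 36 were found on the array by gene name, among 34813 gene names measured. The set covers 7 enzymes of the mevalonate pathway, 11 enzymes between squalene and cholesterol, and 5 sterol sensors and SREBP factors. It also holds 5 genes of intracellular transport and storage, 3 fatty acid enzymes, and 5 genes grouped under efflux and oxysterols. The last group includes the ubiquitin ligase gene Mylip. The BMDMs came from C57BL/6J mice and had been grown in serum-containing medium with M-CSF, a growth factor that drives marrow cells to become macrophages. The M-CSF was taken from medium conditioned by L929 cells that carried human M-CSF. The cells of the first condition were treated for 20 h with CpG, a DNA ligand of the innate receptor TLR9. Those of the second received IFN-γ together with an antibody that blocks the IL-10 receptor (αIL-10R, IL-10RB in the sample labels), and those of the third, Triple, received all of these agents. Each condition had 1 array, so that the conditions could not be tested against each other and the differences below lack a replicate check. The labels do not say how many mice or cultures an RNA sample came from, and their age and sex are not stated. Unstimulated BMDMs were not analysed here, so that values are compared only between the 3 stimuli.

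Cholesterol is built from acetyl-CoA through mevalonate, isoprenoid units, and squalene, and the transcription factor SREBP-2 raises the genes of these enzymes when the membranes of the endoplasmic reticulum hold little sterol. SREBP-2 is escorted to the Golgi by SCAP, where it is cut and released, and INSIG proteins hold it back when sterol is plentiful. Macrophages also take up cholesterol from lipoproteins and engulfed cells, free it in lysosomes, store it as esters, and export it through ABC transporters that oxysterol-activated LXR receptors induce. An oxysterol made by one member of the set, 25-hydroxycholesterol, binds INSIG and restrains SREBP-2.

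RefSeq promoter windows were found for 28 of the 36 genes, and not for Fdps, Fdft1, Sqle, Stard4, Npc1, Abcg1, Scd1, and Scd2. The 250 bases before the start site were searched on both strands for the letters of a sterol regulatory element (SRE, TCACNCCAC) and for the CCAAT box that the SREBP partner NF-Y binds. The letters were chosen with results of these arrays known. The SRE letters were found in 1 of the 28 genes, Hmgcs1, 137 bases before the start, and in 1.05% of all 32851 windows. The CCAAT box was found in 23 of the 28 genes. It was in 63.2% of the 38 windows of these genes and in 33.8% of all windows. No SRE match overlapped a CCAAT box in these windows, and a match of letters is a description and not a binding site. Only exact letters were counted, so that a window without a match is not shown to lack such an element. Windows are printed below for the 4 enzyme genes with an entry whose signal in CpG exceeded that in IFN-γ + αIL-10R by more than 2-fold, and for Ch25h, which differed the most between those arrays in the other direction. The fifth such enzyme is Sqle. Capitals mark the SRE and CCAAT letters in either orientation. On build GRCm38.p6, the Hmgcs1 window is chr13:119690101-119690350 (plus strand), that of Idi1 is chr13:8885356-8885605 (plus strand), that of Cyp51 is chr5:4104698-4104947 (minus strand), that of Hsd17b7 is chr1:169969206-169969455 (minus strand), and that of Ch25h is chr19:34475149-34475398 (minus strand). All are written 5′ to 3′ along the gene.
Hmgcs1: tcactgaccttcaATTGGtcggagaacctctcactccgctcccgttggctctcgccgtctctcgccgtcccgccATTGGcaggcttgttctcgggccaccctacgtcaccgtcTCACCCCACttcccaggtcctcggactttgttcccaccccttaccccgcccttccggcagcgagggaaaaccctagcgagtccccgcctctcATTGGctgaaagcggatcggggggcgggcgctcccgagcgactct
Idi1: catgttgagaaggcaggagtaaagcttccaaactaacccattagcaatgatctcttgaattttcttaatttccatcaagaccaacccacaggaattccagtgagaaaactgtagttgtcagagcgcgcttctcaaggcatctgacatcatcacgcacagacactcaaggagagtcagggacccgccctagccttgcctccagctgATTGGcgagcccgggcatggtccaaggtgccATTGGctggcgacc
Cyp51: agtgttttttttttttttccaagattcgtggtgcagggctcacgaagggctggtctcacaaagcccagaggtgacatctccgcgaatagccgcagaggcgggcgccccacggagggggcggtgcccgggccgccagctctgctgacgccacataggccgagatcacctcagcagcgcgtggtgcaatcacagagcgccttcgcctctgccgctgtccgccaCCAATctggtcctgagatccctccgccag
Hsd17b7: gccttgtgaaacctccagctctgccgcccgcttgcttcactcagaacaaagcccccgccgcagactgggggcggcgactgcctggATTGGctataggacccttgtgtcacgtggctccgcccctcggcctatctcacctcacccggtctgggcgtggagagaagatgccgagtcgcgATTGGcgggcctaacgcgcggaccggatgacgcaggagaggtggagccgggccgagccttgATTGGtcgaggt
Ch25h: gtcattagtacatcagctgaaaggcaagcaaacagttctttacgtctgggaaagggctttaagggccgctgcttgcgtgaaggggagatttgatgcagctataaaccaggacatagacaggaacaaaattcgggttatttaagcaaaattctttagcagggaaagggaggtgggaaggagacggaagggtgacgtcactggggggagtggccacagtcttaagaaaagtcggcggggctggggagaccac
The Hmgcs1 window holds 3 CCAAT boxes beside its SRE, that of Idi1 holds 2, that of Cyp51 holds 1, and that of Hsd17b7 holds 3. The Ch25h window holds 0 matches of either.

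The values are processed signals, intensities in arbitrary units with a fitted background subtracted by the scanner software. A signal counts as measured if the software marked it as well above background, which held for 44.4% to 46.0% of 59305 spots an array. Before log2 folds were taken, the 75th percentile of each array (a signal of 4401 to 4580) was set to 0 on the log2 scale. Signals of different genes come from different probes and are not compared with each other. Of the 36 genes, 34 were measured on every array. Fasn was below that level in Triple, and Scd1, a stearoyl-CoA desaturase, was below it everywhere and has no fold. Replicate spots of 260 probes gave a technical SD of 0.13 for a log2 fold between 2 single spots. This covers noise between spots and not between cultures, and differences within 2 SD (0.26) are not described as differences. The arrays shared 1 slide and 1 scan. Macrophage markers were well above background on all arrays, 7 of 7, with summed signals of 680849 in CpG, 611942 in IFN-γ + αIL-10R, and 486420 in Triple. Such sums add unscaled signals of different probes, and single markers differed in both directions. In Triple relative to CpG, Mertk was 4.05-fold higher and Lyz2 2.19-fold lower. Of the T cell, B cell, erythroid, and NK cell lists, at most 1 gene each was above background, Cd3e with signals of 806 to 869 and Cd79a with 43.6 to 75.5. Neutrophil markers were above background for 3 of 4 on each array, with sums of 3707 in CpG, 9382 in IFN-γ + αIL-10R, and 4720 in Triple. Dendritic cell markers were above background for 0, 1, and 2 of 3 genes (sums of 44.5, 69.0, and 207), and fibroblast markers for 3, 2, and 3 of 3 (sums of 575, 326, and 759). The part of other cells in the values below was not tested. In bulk RNA, fewer cells of a kind and less RNA per cell cannot be told apart. Actb had signals of 396152, 382988, and 399252, and the IFN-γ target Cxcl9 had signals of 38.6, 14431, and 230855.

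Of the 18 sterol synthesis enzymes, 11 (61.1%) had their highest scaled signal in CpG, 10 of them by more than 2 technical SD, beside 34.1% and 11.7% of all genes measured on every array. Relative to IFN-γ + αIL-10R, CpG had more than 2-fold higher signals for 5 enzymes and for the sterol carrier gene Stard4, 6 genes in all, and a lower signal for 1 gene, Ch25h. In Triple, 0 genes of the set exceeded IFN-γ + αIL-10R by 2-fold and 7 were lower, and relative to CpG 1 was higher and 10 were lower. The 5 genes past 2-fold on the lower side in Triple against both other arrays were Tm7sf2, Srebf2, Lipa, Abca1, and Scd2, and 4.94% of all genes well above background on at least 1 array were lower in this way. Srebf2 is counted by its brighter probe, and its second probe was higher in Triple than in IFN-γ + αIL-10R. In all, 15 of the 36 genes were past 2-fold in at least 1 of the 3 comparisons, as were 23.4% of all genes well above background on at least 1 array. These counts have to be read against all genes. In the comparison of CpG with IFN-γ + αIL-10R, 5.04% of genes well above background on at least 1 of both arrays were higher (2.75% of all genes measured) and 5.84% were lower (3.19% of all). The set had 17.1% higher and 2.86% lower of 35 such genes, and its median log2 fold over the 34 genes measured on all arrays was 0.22, beside 0.00 for all genes. For Triple over CpG, 7.54% of such genes were higher (4.12% of all genes measured) and 8.37% lower (4.58% of all). The set had 28.6% lower and a median of −0.40, beside −0.05 for all genes. For Triple over IFN-γ + αIL-10R, 6.6% of such genes were higher (3.56% of all genes measured) and 9.3% lower (5.01% of all). The set had 20.0% lower and a median of −0.14, beside −0.04. The 3 comparisons use each array in 2 of them, so that an error in 1 array enters both. Only the counts and medians are given here, and the arrays allow no test of the set.

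**Figure D1:**
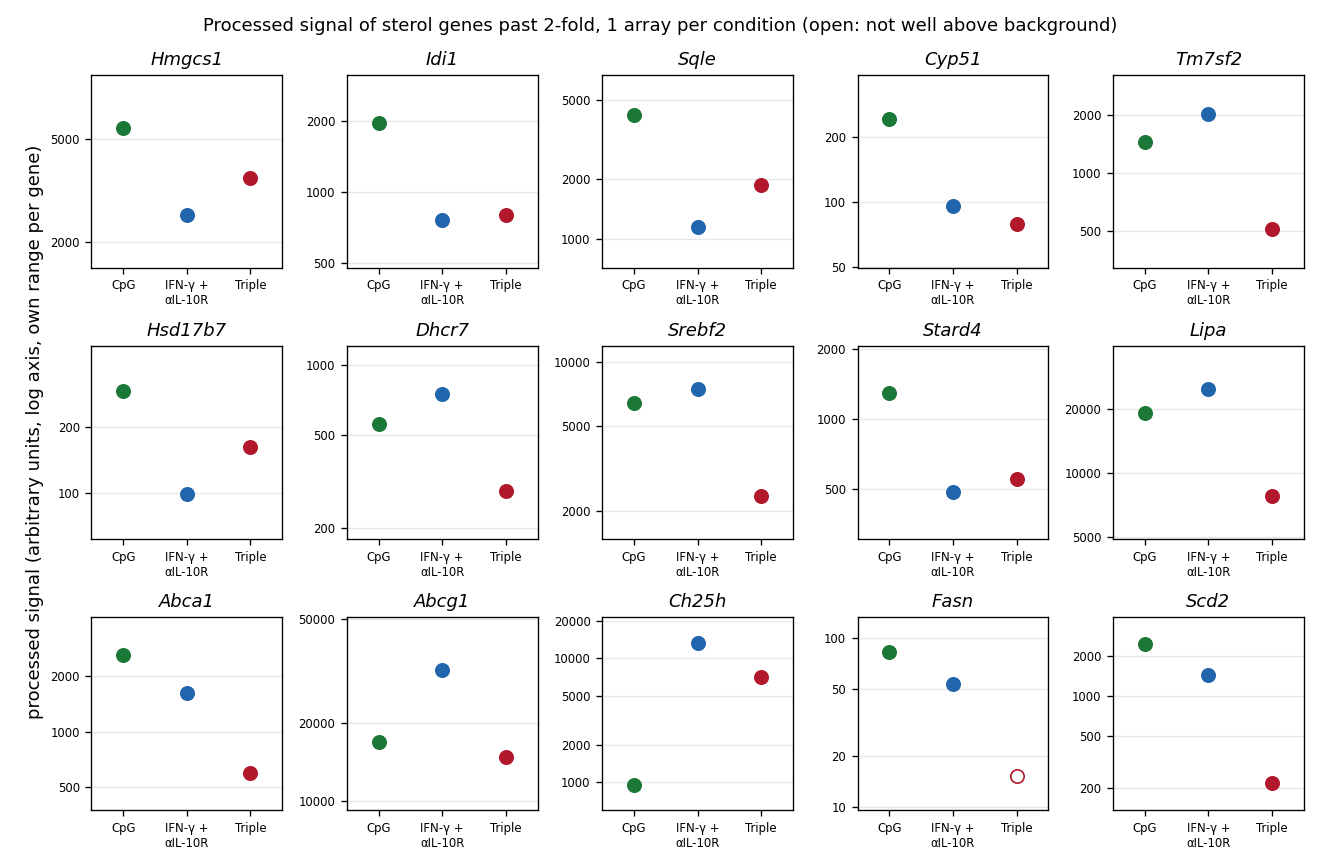
Processed signal (arbitrary units, log axis with its own range for each gene) of the 15 genes past 2-fold in at least 1 comparison, with 1 point for each array. Filled points are well above background and the open point of Fasn is not. Hmgcs1, Idi1, Sqle, Cyp51, Hsd17b7, and Stard4 are highest in CpG, and Tm7sf2, Dhcr7, Srebf2, Lipa, Abca1, and Scd2 are lowest in Triple, Srebf2 by its brighter probe only.

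In the mevalonate pathway, Hmgcs1 and Idi1 were past 2-fold. Hmgcs1, which makes HMG-CoA, had signals of 5496 in CpG, 2557 in IFN-γ + αIL-10R, and 3537 in Triple. CpG was the highest array, 2.12-fold above IFN-γ + αIL-10R (log2 fold 1.08), and Triple lay between them. Idi1, which interconverts the isopentenyl and dimethylallyl units, had signals of 1958, 763, and 799 in the same order. CpG stood alone, 2.53-fold above IFN-γ + αIL-10R and 2.35-fold above Triple, while the other two differed by 0.10 on the log2 scale. Mvd, the decarboxylase that makes isopentenyl diphosphate, and Fdps, which joins these units into farnesyl diphosphate, fell just short of the threshold in CpG over IFN-γ + αIL-10R, with log2 folds of 0.96 and 0.90. Mvk and Pmvk, the kinases of mevalonate and of its phosphate, and Acat2, an acetyl-CoA acetyltransferase, had log2 folds between −0.32 and 0.21 in that comparison. The steps thus did not differ evenly, and over the 7 genes the median log2 fold of CpG over IFN-γ + αIL-10R was 0.90. Relative to CpG, all 7 values of Triple were below 0, with 6 past 2 technical SD and a median of −0.42. Of all genes measured on every array, 54.5% were below 0 in that comparison and 32.2% were past 2 technical SD on that side.

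Between squalene and cholesterol, Sqle showed the widest span of the enzymes that were highest in CpG. Sqle, the squalene epoxidase that is a rate-limiting step of the pathway, had signals of 4163 in CpG, 1144 in IFN-γ + αIL-10R, and 1872 in Triple. CpG was 3.59-fold above IFN-γ + αIL-10R (log2 fold 1.84) and 2.14-fold above Triple. Triple was in turn 1.68-fold above IFN-γ + αIL-10R, within the threshold. The single Sqle probe (chr15:59162688-59162747, mm9) and the brighter probe of Hmgcs1 were each marked as an outlier in the local background on all 3 arrays, and if such spots were left out neither gene had a fold. Cyp51, the lanosterol demethylase, had signals of 243, 96.4, and 79.4. It was 2.49-fold higher in CpG than in IFN-γ + αIL-10R and 2.95-fold higher than in Triple, and the other two arrays differed by −0.24 (log2), within 2 technical SD. Hsd17b7, a ketoreductase of the C-4 demethylation steps, had signals of 295, 98.6, and 163. CpG was 2.95-fold above IFN-γ + αIL-10R, and Triple again lay between, with a log2 fold of −0.80 against CpG. At the next brightest Hsd17b7 probe this CpG excess was 0.96 on the log2 scale, just inside the threshold. Cyp51 and Hsd17b7 were dim, and under the normexp background correction both dropped inside 2-fold for CpG over IFN-γ + αIL-10R, with log2 folds of 0.97 and 0.63. That correction adds 50 to every signal, which by itself shrinks the folds of dim genes. The part of this addition in the drop was not tested.

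2 reductases had another pattern. Tm7sf2, which reduces the C-14 double bond of sterol intermediates, had signals of 1446 in CpG, 2022 in IFN-γ + αIL-10R, and 512 in Triple. Triple was the lowest array, 2.72-fold below CpG and 3.85-fold below IFN-γ + αIL-10R. A second Tm7sf2 probe had signals of 335, 482, and 136, and Triple was lower there too, with log2 folds of −1.79 over IFN-γ + αIL-10R (−1.95 at the first probe) and −1.24 over CpG (−1.44). Dhcr7, the reductase that makes cholesterol from 7-dehydrocholesterol, had signals of 558, 752, and 287. It was 2.55-fold lower in Triple than in IFN-γ + αIL-10R and 1.86-fold lower than in CpG, the latter inside the threshold. Ebp, the sterol isomerase, was also highest in IFN-γ + αIL-10R, with signals of 21807, 30969, and 17723 and folds inside the threshold.

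The remaining enzymes of this stretch, Fdft1 (squalene synthase), Lss (lanosterol synthase), Sc4mol (now Msmo1, the C-4 methyl oxidase), Nsdhl (the C-4 decarboxylase), and Sc5d (the C-5 desaturase), stayed inside 2-fold throughout. Their log2 folds of CpG over IFN-γ + αIL-10R ran from −0.10 for Nsdhl to 0.77 for Fdft1. The second probe of Fdft1 gave −0.19 in that comparison, so that its probes disagreed. Its signals were 73.9 in CpG, 83.3 in IFN-γ + αIL-10R, and 48.2 in Triple. For Triple over IFN-γ + αIL-10R it gave a log2 fold of −0.75, beside 0.39 at the brighter probe. The second Nsdhl probe gave −0.56 for Triple over CpG, beside 0.06 at the brighter one. The counts that follow use the brighter probes. Over all 18 enzymes of both stretches, CpG was the highest array by more than 2 technical SD for 10 (55.6%), IFN-γ + αIL-10R for 4 (22.2%), and Triple for 0. Over the 16512 genes measured on all arrays the corresponding shares were 11.7%, 14.3%, and 14.1%. IFN-γ + αIL-10R was the lowest array by that margin for 7 of the 18 (38.9%). These were Hmgcs1, Mvd, Fdft1 (by its brighter probe only), Sqle, Lss, Hsd17b7, and Sc5d. Pmvk, Tm7sf2, and Dhcr7 (16.7%) were lowest in Triple by that margin. Of all genes, 13.0% were lowest in IFN-γ + αIL-10R and 20.6% in Triple in this way.

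**Figure D2:**
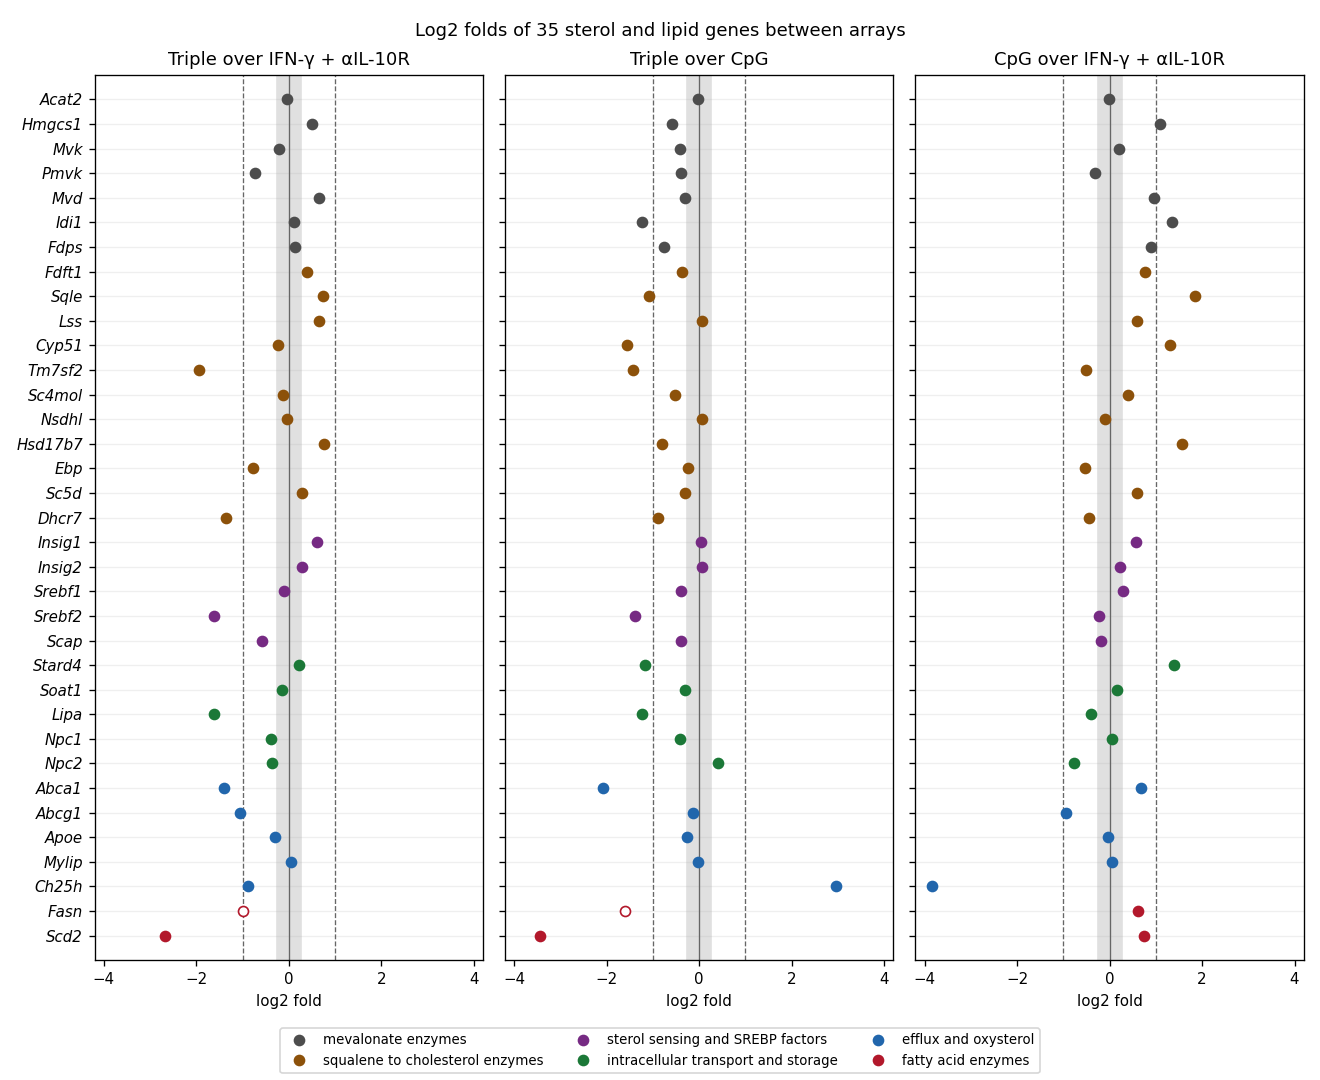
Log2 folds of the 35 genes with a fold in the 3 comparisons, coloured by role, with dashed lines at 2-fold and a grey band of 2 technical SD (0.26) around 0. Open points are bounds, where Triple was not well above background. Most enzymes lie right of 0 for CpG over IFN-γ + αIL-10R, while Ch25h lies far left at −3.83, and Scd2 lies furthest left for Triple over either array (−2.68 and −3.43).

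The sterol sensors did not follow the enzymes as a group. Insig1, which holds SCAP in the endoplasmic reticulum and is itself an SREBP target, had signals of 213 in CpG, 140 in IFN-γ + αIL-10R, and 209 in Triple. CpG and Triple were both above IFN-γ + αIL-10R, with log2 folds of 0.58 and 0.61. Insig2, a relative that SREBP does not induce, Srebf1, which encodes the SREBP-1 factors, and Scap differed by between −0.59 and 0.30 on the log2 scale in the 3 comparisons. Srebf2, the gene of SREBP-2, had signals of 6414, 7424, and 2351 at its brighter probe. Triple was lowest there, 2.62-fold below CpG and 3.08-fold below IFN-γ + αIL-10R.

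The second Srebf2 probe showed a different order. Its signals were 1106 in CpG, 554 in IFN-γ + αIL-10R, and 869 in Triple. Triple and CpG were both above IFN-γ + αIL-10R at this probe, with log2 folds of 0.68 and 0.97. The 2 probes lie on chr15 of build mm9, at 82030068-82030127 for the brighter one and at 82034765-82034824 for the other. Triple was thus lower or higher than IFN-γ + αIL-10R depending on the probe, and no direction is given for Srebf2 in that comparison. The mean of both probes was inside 2-fold, at −0.47 against IFN-γ + αIL-10R and −0.84 against CpG. The order of the dimmer probe, with CpG highest and IFN-γ + αIL-10R lowest, was that of Hmgcs1, Sqle, and Hsd17b7. Among the 10 second probes measured on all arrays, 8 had the sign of the brightest probe for Triple over IFN-γ + αIL-10R, 8 for Triple over CpG, and 6 for CpG over IFN-γ + αIL-10R. They differed by more than 2 technical SD for 3, 4, and 4 probes.

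**Figure D3:**
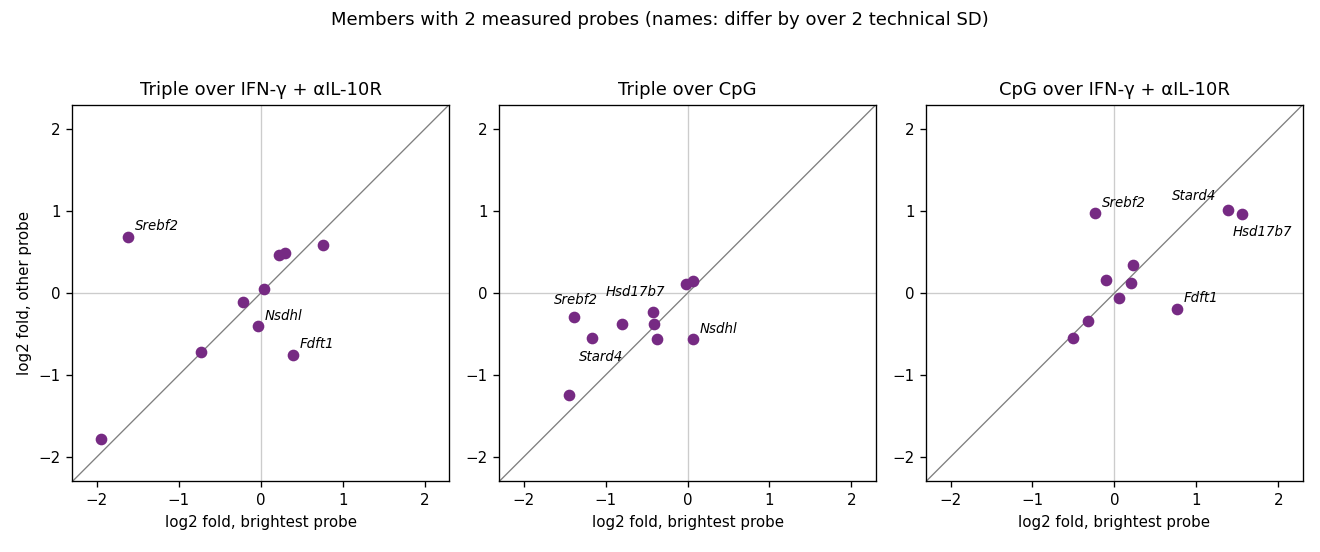
Log2 fold at a second probe against log2 fold at the brightest probe for 10 probe pairs of the set, with the line of equal values. Names are given where the pair differs by more than 2 technical SD (0.26). Srebf2 lies above the line in all 3 comparisons, at −1.62 and 0.68 for Triple over IFN-γ + αIL-10R.

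In intracellular transport and storage, Stard4 and Lipa were past 2-fold, with different highest arrays. Stard4, a soluble sterol carrier, had signals of 1294 in CpG, 487 in IFN-γ + αIL-10R, and 555 in Triple. It was 2.62-fold higher in CpG than in IFN-γ + αIL-10R and 2.24-fold higher than in Triple. A second Stard4 probe gave a log2 fold of 1.01 for CpG over IFN-γ + αIL-10R, beside 1.39 for the first, and of −0.54 for Triple over CpG, beside −1.16, and the mean of both probes was inside 2-fold there. Lipa, the lysosomal acid lipase that frees cholesterol from esters, had signals of 19155, 24781, and 7851. Triple was the lowest array, 2.34-fold below CpG and 3.08-fold below IFN-γ + αIL-10R.

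Npc1 and Npc2, which move cholesterol out of the lysosome, and Soat1, which esterifies it for storage, were not past 2-fold. Npc2 was lowest in CpG, with signals of 66324, 111518, and 83948. The log2 folds of Npc1 and Soat1 were −0.42 and −0.31 for Triple over CpG and −0.38 and −0.15 for Triple over IFN-γ + αIL-10R. Of the lysosomal genes of the set, only Lipa was past the threshold in these comparisons.

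Among the efflux genes, both ABC transporters had lower signals in Triple than in IFN-γ + αIL-10R. Abca1, which loads cholesterol onto apolipoprotein A-I, had signals of 2625 in CpG, 1625 in IFN-γ + αIL-10R, and 599 in Triple. Triple was 4.21-fold below CpG (log2 fold −2.08) and 2.65-fold below IFN-γ + αIL-10R. Abcg1, which exports cholesterol to HDL, had signals of 16904, 31791, and 14806. It was 2.09-fold lower in Triple than in IFN-γ + αIL-10R, close to the threshold, and the CpG and Triple arrays differed by −0.13 (log2), within 2 technical SD. When the 75th percentile was taken over all probes, the log2 fold of Abcg1 was −0.96 in place of −1.07. Apoe, the apolipoprotein that macrophages secrete, had log2 folds between −0.29 and −0.03, and Mylip, an LXR-induced ubiquitin ligase, between −0.02 and 0.06.

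Ch25h, the cholesterol 25-hydroxylase (probe at chr19:34548720-34548779, mm9), had the largest difference of the set, opposite in direction to the 5 enzymes past 2-fold between CpG and IFN-γ + αIL-10R. Its signals were 953 in CpG, 13398 in IFN-γ + αIL-10R, and 7101 in Triple. It was 14.3-fold lower in CpG than in IFN-γ + αIL-10R (log2 fold −3.83) and 7.75-fold higher in Triple than in CpG. Triple was 1.84-fold below IFN-γ + αIL-10R, inside the threshold. The array with the lowest Ch25h signal, CpG, was the one with the highest signals of Hmgcs1, Idi1, Sqle, Cyp51, Hsd17b7, and Stard4. Those genes had been picked as past 2-fold in CpG over IFN-γ + αIL-10R, so that their order between these arrays was fixed. Of the 18 synthesis enzymes, 10 were highest in CpG by more than 2 technical SD. Another 4, Pmvk, Tm7sf2, Ebp, and Dhcr7, were highest in IFN-γ + αIL-10R by that margin, as Ch25h was. With 3 arrays, no relation between these genes can be tested. The neutrophil marker Ly6g had the same order as Ch25h, with signals of 555, 7699, and 2658, whereas the others of that list that were above background had another order. S100a8 had signals of 297, 55.7, and 517, and Elane had 2839, 1615, and 1539. The part of neutrophil RNA in the Ch25h values was not tested.

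Of the fatty acid enzymes, only Scd2 was measured on every array, and it was lowest in Triple. Scd2, the stearoyl-CoA desaturase that was measured here (probe at chr19:44381024-44381083, mm9), had signals of 2463 in CpG, 1443 in IFN-γ + αIL-10R, and 219 in Triple. Triple was 10.8-fold below CpG (log2 fold −3.43) and 6.43-fold below IFN-γ + αIL-10R, the largest decreases in Triple in the set. Fasn, fatty acid synthase, had signals of 83.6, 53.6, and 15.3, of which the last was not well above background. Its fold is a bound against the lowest measured signal of the Triple array, 26.3, and it was at least 3.05-fold lower in Triple than in CpG and at least 1.99-fold lower than in IFN-γ + αIL-10R, the latter just inside the threshold. Under the normexp background correction, which adds 50 to every signal, the log2 fold of Fasn for Triple over CpG was −0.63.

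The values next to the threshold show how narrow some calls were. For CpG over IFN-γ + αIL-10R, the last gene past it on the higher side was Hmgcs1 (1.08) and the first not past it was Mvd (0.96). For Triple over CpG, these were Sqle (−1.10) and Dhcr7 (−0.90). For Triple over IFN-γ + αIL-10R, they were Abcg1 (−1.07) and Fasn (−0.99, a bound). All 6 values lie within 2 technical SD of the threshold.

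Other genes of lipid metabolism were examined, 59 genes in 6 lists. Each is given by its brightest probe, and neither second probes nor alternative processing were examined for their folds. Of 8 genes that process or degrade SREBP, 0 were past 2-fold in any comparison. Their median log2 fold was −0.05 for Triple over CpG, −0.02 for Triple over IFN-γ + αIL-10R, and 0.22 where CpG was compared with the latter. Of 10 genes of the isoprenoid branches, which use the same precursors for ubiquinone, dolichol, and prenylated proteins, 1 was past it. This was Coq2 of ubiquinone synthesis, with signals of 7433 in CpG, 16473 in IFN-γ + αIL-10R, and 8054 in Triple, and it was 2.25-fold lower in CpG than in IFN-γ + αIL-10R.

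Of 12 LXR receptors, partners, and targets, 1 was past 2-fold on the higher side and 5 on the lower side for Triple over CpG. The counts were 1 and 3 for Triple over IFN-γ + αIL-10R, while CpG over IFN-γ + αIL-10R gave 1 and 0. The gene that was higher in all 3 was Nr1h3, which encodes LXRα, with signals of 17776 in CpG, 4388 in IFN-γ + αIL-10R, and 47660 in Triple. Triple was the highest array, 11.1-fold above IFN-γ + αIL-10R and 2.79-fold above CpG, whereas Abca1 and Abcg1, targets of LXR, were lower in Triple than in IFN-γ + αIL-10R. Lpl, the lipoprotein lipase and another LXR target, had signals of 144710, 149111, and 38777, and was 3.75-fold lower in Triple than in IFN-γ + αIL-10R. Nceh1, a cholesteryl ester hydrolase, and Abca2, a transporter of late endosomes, were 2.54-fold and 2.57-fold lower in that comparison.

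Of 12 genes of fatty acid synthesis, 1 was higher and 3 lower in Triple than in IFN-γ + αIL-10R, 1 was higher and 6 were lower in Triple than in CpG, and 2 were higher and 1 lower in CpG than in IFN-γ + αIL-10R. Elovl6, the elongase that works beside the desaturases, had signals of 174 in CpG, 244 in IFN-γ + αIL-10R, and 33.4 in Triple. Like Scd2 it was lowest in Triple, 5.00-fold below CpG and 7.11-fold below IFN-γ + αIL-10R. Lpin1, a phosphatidate phosphatase, was at least 5.23-fold lower in Triple than in CpG. Me1, which supplies NADPH, was 3.95-fold higher in CpG than in IFN-γ + αIL-10R and 3.37-fold higher in Triple than there. Acsl3, an acyl-CoA synthetase, was 3.05-fold higher in CpG than in IFN-γ + αIL-10R, and its log2 fold of Triple over CpG was −1.58.

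Of 10 oxysterol enzymes, carriers, and receptors, 1 was higher and 2 were lower in Triple than in IFN-γ + αIL-10R, and also in Triple than in CpG, and 2 were higher and 2 lower in CpG than in IFN-γ + αIL-10R. Gpr183, the receptor for a dihydroxycholesterol made from the product of Ch25h, had signals of 403 in CpG, 94.9 in IFN-γ + αIL-10R, and 7.04 in Triple. It ran opposite to Ch25h between CpG and IFN-γ + αIL-10R, 4.18-fold higher in CpG, and was not well above background in Triple, at least 14.7-fold below CpG. Cyp27a1, the sterol 27-hydroxylase, had signals of 60.1, 206, and 11.8 and was at least 7.64-fold lower in Triple than in IFN-γ + αIL-10R. Hsd3b7, which acts on hydroxylated sterols, had signals of 9395, 22917, and 16313, in the order of Ch25h. Stard5, a sterol carrier related to Stard4, had signals of 1453, 532, and 1153 and was 2.22-fold higher in Triple than in IFN-γ + αIL-10R.

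Of 7 lipoprotein uptake receptors, 5 were well above background in Triple or IFN-γ + αIL-10R. In each other comparison 6 were, on at least 1 array. Among them, 0 were higher and 1 lower in Triple than in IFN-γ + αIL-10R. In Triple relative to CpG, 0 were higher and 3 lower. In CpG relative to IFN-γ + αIL-10R, 2 were higher and 0 lower. Lrp1, an endocytic receptor for remnant lipoproteins, had signals of 15394 in CpG, 12652 in IFN-γ + αIL-10R, and 4754 in Triple. It was 2.60-fold and 3.11-fold lower in Triple than in IFN-γ + αIL-10R and CpG. Vldlr and Lrp8, relatives of the LDL receptor, were dim and were brightest in CpG, with signals of 71.1 and 96.6 there. Lrp8 was at least 3.52-fold lower in Triple than in CpG.

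**Figure D4:**
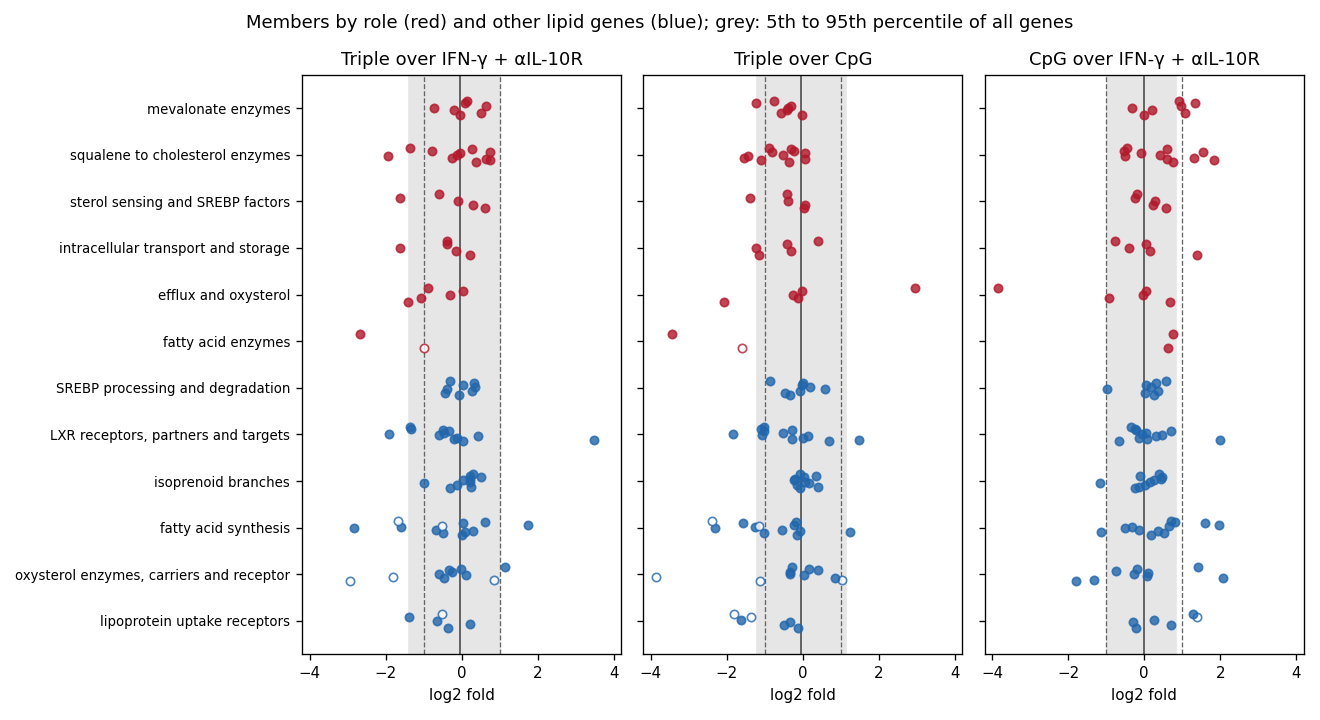
Log2 folds of the set by role (red) and of 6 lists of other lipid genes (blue), with 1 point for each gene, open where the fold is a bound. The grey band is the 5th to 95th percentile of the 16512 genes measured on all arrays, the solid line their median, and the dashed lines 2-fold. In the right panel the mevalonate enzymes lie mostly right of the median. Nr1h3 is the blue point at 3.48 in the left panel.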

How the data were processed

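RNA of 3 BMDM samples was hybridized to 1-colour Agilent arrays. The authors deposited the scanner output of Agilent Feature Extraction (version 10.10.1.1). In the processed signal the authors deposited, an intensity, a fitted surface had been subtracted at every spot. A deposited table of log2 values differed from these signals, on the log2 scale, by a constant within each array (tolerance 0.01) for 99.9% of the probes. Control spots and spots marked as outliers were left out, and log2 signals of the spots of a probe were averaged. From each array its 75th percentile was subtracted, taken over 22382 probes that exceeded background on every array, since under 50% of spots (45.1%) did so on average. The probe with the highest mean stood for a gene. A higher call needed more than 2-fold and a signal well above background in the numerator, a lower call the same in the denominator. Dim signals were raised to the lowest signal well above background (23.8 to 26.7), which gives bounds.

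The members and lists were chosen with earlier results of these data known. After member values had been seen, outlier marks of the local background were not used as a filter, because that background was not subtracted, and a probe with several spots had to be above background in more than 50% of them. Both choices were tried the other way. Every member is named, signals are given for those past 2-fold, and up to 4 genes past 2-fold are named of each other list. Chromosome positions of probes are those of the array's mm9 annotation, promoters are from RefSeq (GRCm38.p6). Python 3.11.15, numpy 2.4.6, pandas 2.3.3, R 4.3.3 and limma 3.58.1 (normexp, offset 50) were used.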

Additional observations from a re-analysis of the deposited data

How the results depend on the processing

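No paired analysis was possible because there was 1 array for each condition, and for the same reason no array could be left out. 15 alternatives were run, of which the background-outlier filter and the half-of-spots rule were added after seeing the data. Of 25 folds past 2-fold, 0 changed sign, and 18 stayed past 2-fold in each of the 12 alternatives on folds that gave them a value. The exceptions were Fasn (Triple over CpG, −0.63), Cyp51 (0.97), and Hsd17b7 (0.63, both CpG over IFN-γ + αIL-10R) under normexp background correction. That correction adds 50 to every signal, which by itself shrinks the folds of dim genes. Abcg1 (Triple over IFN-γ + αIL-10R) was at −0.96 with the percentile over all probes, with median scaling, and in the authors' table. With the mean over probes, Srebf2 was at −0.47 and −0.84 (Triple over IFN-γ + αIL-10R and over CpG) and Stard4 at −0.85 (Triple over CpG). The largest shift of the all-gene median was −0.15, with spike-in scaling for Triple over IFN-γ + αIL-10R. Scaling could thus hardly change the sign of a fold past 2-fold. No alternative used a second probe alone, and at that probe Srebf2 was at 0.68 for Triple over IFN-γ + αIL-10R. A 1.5-fold threshold gave 5 genes higher (in place of 0) and 12 lower (7) for Triple over IFN-γ + αIL-10R, and 14 higher (6) and 3 lower (1) for CpG over IFN-γ + αIL-10R. Of all 34813 genes measured, 2527 were higher and 3247 lower at 1.5-fold in the first of these comparisons. In the second, 2134 were higher and 2425 lower. A 3-fold threshold gave 4 lower (7) for Triple over IFN-γ + αIL-10R, 3 lower (10) for Triple over CpG, and 1 higher (6) for CpG over IFN-γ + αIL-10R. Over all genes measured, the 3-fold counts were 855 lower, 732 lower, and 439 higher in the same order. Spike-in scaling moved the set's median for Triple over IFN-γ + αIL-10R to −0.29, and moved the median of all genes to −0.19. Relative to all genes, the set's median ranged from −0.14 to −0.08 in that comparison, from −0.36 to −0.34 for Triple over CpG, and from 0.18 to 0.28 for CpG over IFN-γ + αIL-10R. A constant shift of an array cancels in this difference. Scaling alternatives other than quantile normalization therefore could not move it, and the ranges do not test them. Leaving out spots with a background outlier mark removed Sqle and the brighter Hmgcs1 probe. It left 4 genes higher in CpG over IFN-γ + αIL-10R, beside 925 of all genes. With the half-of-spots rule, Fasn was also past 2-fold for Triple over IFN-γ + αIL-10R, and 8 genes were lower, beside 2026 of all genes. The number of arrays and the signal over background of dim genes such as Fasn, Cyp51, and Hsd17b7 limit the precision.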
